A study of Drosophila melanogaster with 2 samples.

Results

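Chitinases cut chitin, the N-acetylglucosamine polymer of insect cuticle, and belong to glycoside hydrolase family 18. The imaginal disc growth factors, encoded by the Idgf genes, are secreted proteins of the same family that lack the glutamate needed for catalysis; they were first described as factors that help imaginal disc cells grow in culture. The fly hindgut is an ectodermal tube whose lumen is lined by chitinous cuticle, so both kinds of gene concern a material that this organ carries. The members described here are the chitinase-like genes Idgf1, Idgf2 and Idgf3 and the chitinase genes Cht2 and Cht7. The 5 members were chosen by symbol through the identifiers of the authors' deposited table and the Ensembl annotation of BDGP6, out of the 23932 features in that table.

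The study compared hindguts of mature and of young adult Drosophila melanogaster. All animals carried bynGal4, a Gal4 driver named after the hindgut gene brachyenteron, and were raised at 25 °C. The labels name no other transgene. Mature adults were kept for 4 days at 18 °C after emergence, and young adults were dissected as they emerged, so age and the temperature of adult life changed together and cannot be told apart. Each condition had 3 replicates and 100 to 150 guts, and the labels call the cells adult ileal cells, after the tubular middle part of the hindgut. How the replicates were formed is not stated, so the p-values reflect the spread of these 6 libraries alone, and that spread may be technical.

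The values came from the authors' deposited table, which gives each feature a mean of normalized counts over the libraries and a DESeq2 fold change between the ages. No value per library was analysed here, and the depth of each library is unknown. Every log2 fold change below is young over mature, so a negative value means higher in mature guts. The level of a gene in each age was derived from its mean and its fold change for equal numbers of libraries and is called an implied mean; it has no error of its own. Gene names were used only on arm 2L up to position 22247875 and on arm 3L up to position 5149852, called the name-checked stretches. There, 19 cytoplasmic ribosomal protein genes had a median mean of 57853 normalized counts, against 1.33 for the 66 such genes elsewhere, where such genes should also be abundant. The stretches were bounded with such genes in view, so that contrast is partly built in. All 5 members lay inside because only genes on those stretches were kept. Hindgut markers on those stretches were present, with Nha1 at a mean of 165721 and drm at 13433 in the authors' deposited table, whereas dac had a mean of 13.2.

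The 5 members split by kind of gene, while 11 other family 18 genes lay outside the name-checked stretches and were not read. Idgf1, Idgf2 and Idgf3 were higher in mature guts, by 3.19-fold to 3.55-fold. Cht2 and Cht7 were higher in young guts, by 3.76-fold and 4.90-fold. At an adjusted p under 0.05 in the authors' DESeq2 Wald test, 40.3% of the 2604 tested features of the name-checked stretches were called, 19.7% as higher in mature and 20.7% as higher in young, so a call alone did not set these genes apart. A stricter Wald test, against a 2-fold change and adjusted over the whole table, called 4.15% of those features, 2.11% as higher in mature and 2.04% as higher in young, and all 5 family members were among them. The members were chosen with earlier results of these data known, so that count only describes them and is no test of the family.

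**Figure D1:**
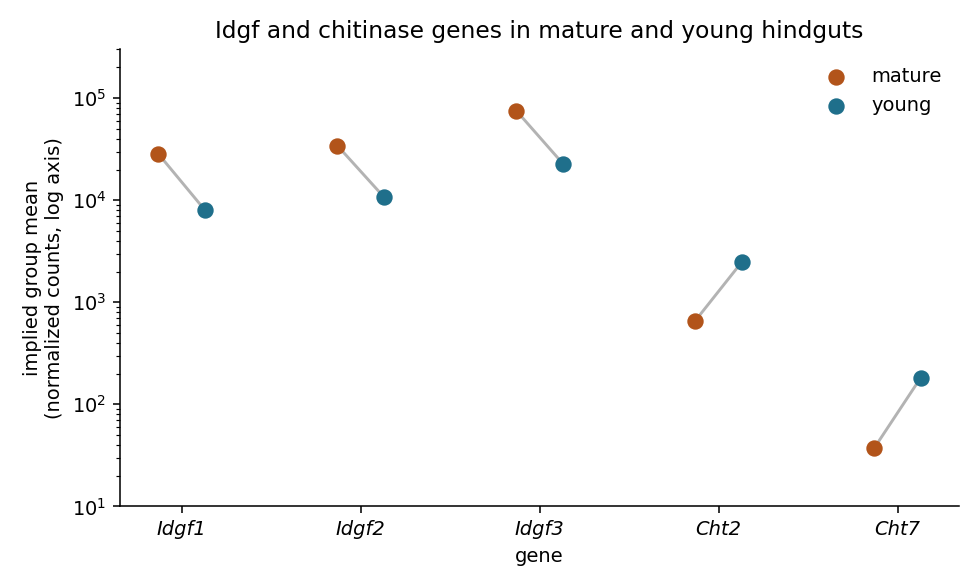
Implied mean of each gene in mature guts (left point) and young guts (right point), in normalized counts on a log axis; the points carry no error because the table holds no value per library. The 3 Idgf genes sat at 28475 to 75326 in mature guts and at 8017 to 22829 in young guts, while Cht2 and Cht7 were lower in mature than in young guts.

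Idgf1 (FBgn0020416) lies on 2L from 16445278 to 16446793 on the plus strand and is annotated with 1 transcript of 2 exons. It had a mean of 18246 normalized counts in the authors' deposited table, which implies 28475 in mature guts and 8017 in young guts. Its log2 fold change in the authors' deposited table was -1.83 with a standard error of 0.08 (adjusted p = 2.01e-113, DESeq2), or 3.55-fold higher in mature with a 95% interval of 3.19 to 3.96. Of the 512 features called higher in mature in the name-checked stretches, 50 had a larger fold.

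Idgf2 (FBgn0020415), from 16447330 to 16450508 on the same strand, begins 536 bases after Idgf1 ends. Its mean in the authors' deposited table was 22543, which implies 34323 normalized counts in mature guts and 10763 in young guts. The log2 fold change in the authors' deposited table was -1.67 with a standard error of 0.08 (adjusted p = 4.26e-86, DESeq2), or 3.19-fold higher in mature with a 95% interval of 2.85 to 3.57.

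Idgf3 (FBgn0020414), from 16450907 to 16455194, follows Idgf2 after 398 bases, and the 3 genes together span 9917 bases. It had the highest mean of the family members before any correction for length, 49078 normalized counts in the authors' deposited table, 47th among the 3628 features with a mean above 0 in the name-checked stretches. That mean implies 75326 normalized counts in mature guts and 22829 in young guts. The log2 fold change in the authors' deposited table was -1.72 with a standard error of 0.08 (adjusted p = 3.93e-107, DESeq2), or 3.30-fold higher in mature with a 95% interval of 2.97 to 3.67. Only 6 of the 47 features with a mean at least that high, Idgf3 included, were called higher in mature with a fold at least as large.

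The 3 Idgf genes did not differ from each other in fold beyond their errors. Their log2 fold changes lay within 0.16 of each other and all 3 intervals overlapped. Accordingly, their proportions were close in both ages: Idgf3 made up 54.5% of the summed implied Idgf mean in mature guts and 54.9% in young guts, Idgf2 24.8% and 25.9%, and Idgf1 20.6% and 19.3%. The sum over the 3 genes was 138124 normalized counts in mature guts and 41609 in young guts. The genes are paralogs, and how reads that match more than 1 of them were counted was not given in the sources used here, and the division between them is uncertain.

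Cht2 (FBgn0022702) lies on 3L from 1752328 to 1755934 on the minus strand and has 3 annotated transcripts. It had a mean of 1573 normalized counts in the authors' deposited table, which implies 661 in mature guts and 2484 in young guts. Its log2 fold change in the authors' deposited table was 1.91 with a standard error of 0.12 (adjusted p = 2.31e-57, DESeq2), or 3.76-fold higher in young with a 95% interval of 3.21 to 4.41. Of 911 features with a mean at least as high in the name-checked stretches, 5 including Cht2 were called higher in young with a fold at least as large. The authors' deposited list of features higher in young, whose smallest absolute log2 value is 1.96, does not include Cht2, whose change was just under that value.

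Cht7 (FBgn0035398), from 3090985 to 3106958 on the minus strand of 3L, is annotated with 1 transcript of 8 exons. It was the least abundant of the family members, with a mean of 110 normalized counts in the authors' deposited table, which implies 37.4 in mature guts and 183 in young guts. The log2 fold change in the authors' deposited table was 2.29 with a standard error of 0.35 (adjusted p = 1.18e-09, DESeq2), or 4.90-fold higher in young. The 95% interval, 3.03-fold to 7.92-fold, was the widest of the 5 and overlapped that of Cht2, so the larger estimate of Cht7 was not separated from that of Cht2. Its standard error was close to the median of 0.35 over the 330 other tested features whose means lay within 2-fold of its own. Cht7 is the only one of the 5 genes in the authors' deposited lists, among 132 features higher in young.

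**Figure D2:**
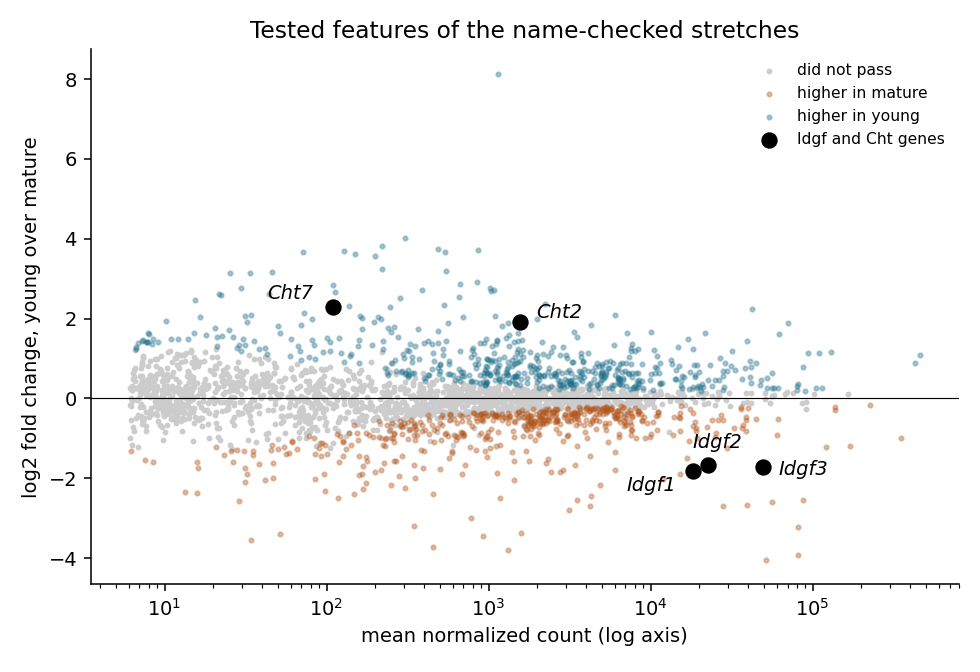
Mean normalized count (log axis) against the log2 fold change, young over mature, for the 2604 tested features of the name-checked stretches; black points are the Idgf and chitinase genes. The Idgf genes lie among the most abundant features, below 0, and Cht2 and Cht7 lie above 0 at means of 1573 and 110.

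The levels of the 2 kinds of gene were far apart, and the gap differed between the ages. Per kilobase of merged exon, the mean was 12627 normalized counts for Idgf1, 12552 for Idgf2, 12412 for Idgf3, 518 for Cht2 and 27.9 for Cht7. The 3 Idgf genes were thus nearly level on that scale, Cht2 was 24.0 to 24.4 times lower and Cht7 a further 18.5 times lower. Summed per kilobase, the implied mean of the Idgf genes was 255 times that of Cht2 and Cht7 in mature guts and 20.0 times in young guts. The near equality of the Idgf genes rested on the length used. Idgf3 has annotated transcripts of 1649 to 3801 bases, whereas its coding exons, at 1323 bases, are about as long as the 1317 of Idgf1 and the 1320 of Idgf2. Per kilobase of coding exon, the mean was 37096 normalized counts for Idgf3, 17078 for Idgf2 and 13854 for Idgf1, against 1083 for Cht2 and 36.3 for Cht7. These values divide the same gene counts, which can include reads outside coding exons, by the shorter length. That raises Idgf3 most, since its merged exons measure 3954 bases. The order of Idgf genes, Cht2 and Cht7 was the same on both scales, but the order within the Idgf genes was not.

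The genes around the members were compared next, since counts of overlapping genes can share reads when strand is not used, and the strand setting is not given in the sources used here. Idgf1 lies within CG5888, a gene on the opposite strand that also reaches into Idgf2, but no exon of CG5888 overlaps an exon of either. CG5888 had a mean of 141 and a log2 fold change of -1.16 in the authors' deposited table (adjusted p = 0.000327, DESeq2), higher in mature like the Idgf genes and far less abundant. Beyond the cluster, dac, a nuclear regulator gene of the retinal determination network 11.3 kb to the right of Idgf3, was listed in the authors' deposited table with a mean of 13.2 and a log2 fold change of 0.13 (adjusted p = 0.895). The next tested gene on that side, Tpr2, which encodes a co-chaperone, was higher in young at a log2 fold change of 0.27 in the authors' deposited table. On the left, 78.2 kb from Idgf1, jhamt, which encodes the enzyme of the last steps of juvenile hormone synthesis, was higher in mature, with a mean of 361 and a log2 fold change of -0.93 (adjusted p = 3.24e-05, the authors' deposited table). CaBP1 and CG4455, the next genes to the left, did not pass; the authors' deposited table gives log2 fold changes of -0.16 for CaBP1 and -0.09 for CG4455.

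Cht2 stood between neighbours of opposite direction. To its left, CG13921 shares 63 exonic bases with Cht2 on the opposite strand, 2.07% of the merged exon of Cht2. It was higher in young at a mean of 277 and a log2 fold change of 1.53 in the authors' deposited table. Gk2, a glycerol kinase gene 6.91 kb to the left of Cht2, was higher in young at a mean of 10053 and a log2 fold change of 1.67 in the authors' deposited table, while PIG-Wb and Oseg4 beyond it did not pass. To the right, CG8001, Dhc62B (an axonemal dynein heavy chain gene) and CG13933 were all higher in mature, with log2 fold changes in the authors' deposited table of -0.46, -1.09 and -0.77. The direction thus changed across the 224 bases between Cht2 and CG8001, where 40.3% of all tested features of the name-checked stretches were called in either direction. The 5 tested neighbours of Cht7, namely PAN3, CG32486, CG16753, CG45067 and promL, had log2 fold changes between -0.25 and 0.15 in the authors' deposited table. DESeq2 called 0 of them, also at an unadjusted p under 0.05. The 6 tRNA genes in the introns of Cht7 were listed at 0, as was its neighbour CG45066.

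**Figure D3:**
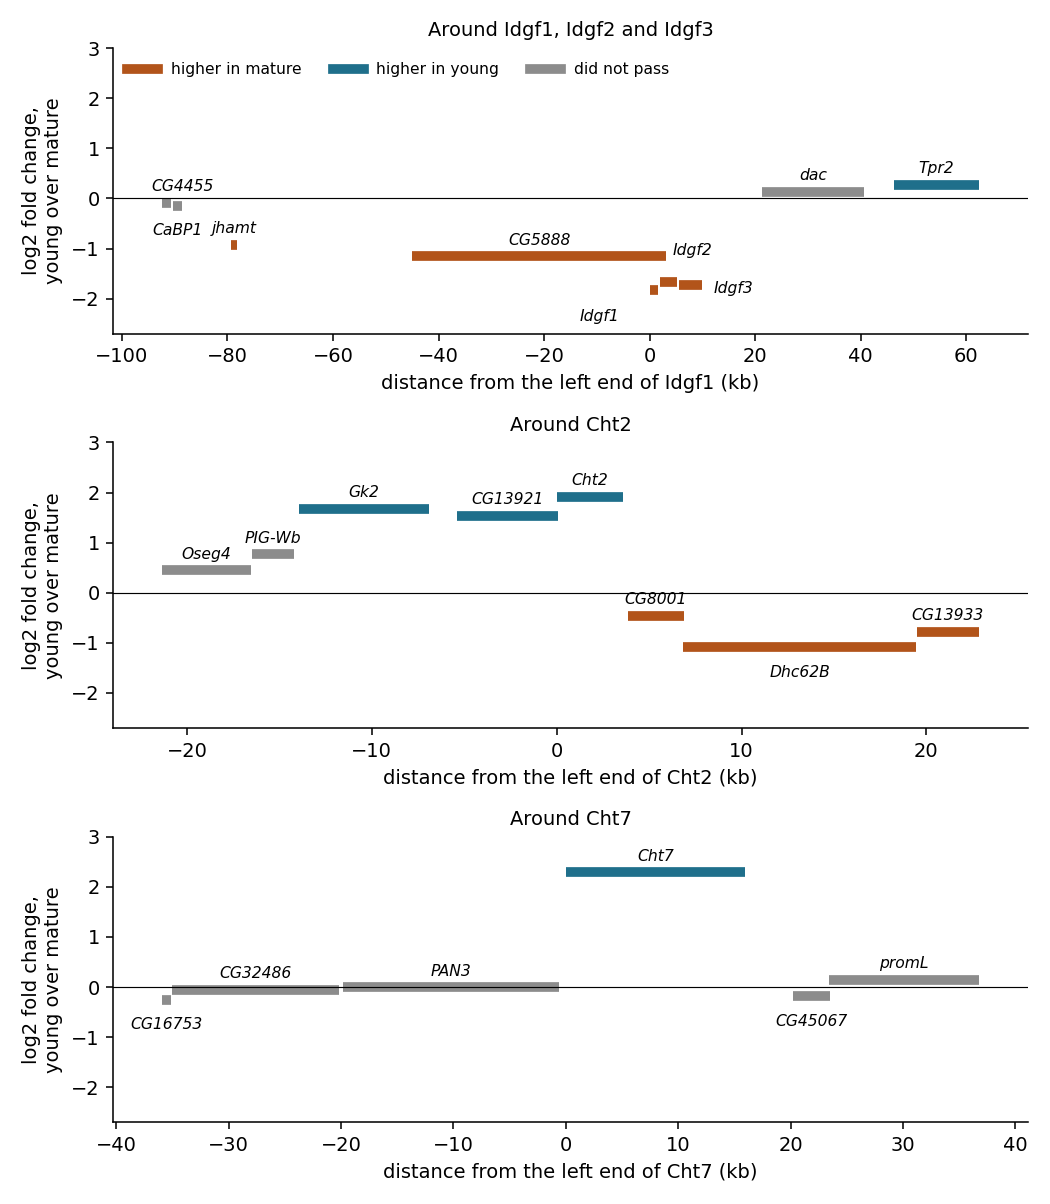
Log2 fold change, young over mature, of the Idgf and chitinase genes and their tested neighbours, drawn at each gene's extent in kb from the left end of Idgf1, Cht2 or Cht7. The 3 Idgf genes lie together between -1.83 and -1.67, and Cht7 stands at 2.29 among neighbours that did not pass. Cht2 has CG13921 and Gk2, higher in young, on its left and CG8001, Dhc62B and CG13933, higher in mature, on its right. PIG-Wb and Oseg4, further left, did not pass.

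The rest of family 18 could be read at 1 gene only. Of 12 other family genes with a row in the table, 11 lay outside the name-checked stretches (6 on 2R, 3 on X, 1 on 3R and Cht10 beyond the end of the 2L stretch), and their values are not reported. CG8460, a further family 18 gene on 2L, had a mean of 644 and a log2 fold change of -0.97 with a standard error of 0.16 in the authors' deposited table (adjusted p = 2.57e-08, DESeq2). It was higher in mature like the Idgf genes, though less so, since its 95% interval did not overlap theirs.

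A list of other genes that make, alter or bind chitin was also read; it leaves out the large cuticle protein families. Of its 9 genes in the name-checked stretches 7 were tested, of which 1 was higher in mature, 2 were higher in young and 4 did not pass, a share close to the 40.3% called over all tested features of those stretches. The median log2 fold change was 0.17, against -0.0070 over all tested features of those stretches. The 7 estimates were smaller in size than those of the family members, but the 95% interval of obst-B overlapped that of Cht7, and that of ChLD3 overlapped those of Cht2 and Cht7. For synthesis, mmy, which encodes the enzyme that makes the activated sugar for chitin synthase, was 1.41-fold higher in young (log2 0.50 in the authors' deposited table, adjusted p = 0.000327, DESeq2). Among deacetylases, which trim acetyl groups from chitin, Cda5 was 1.90-fold higher in mature (log2 -0.93 in the authors' deposited table, adjusted p = 4.63e-05, DESeq2). ChLD3, at a mean of 10.4, had a log2 fold change of 0.75 in the authors' deposited table and did not pass (adjusted p = 0.253).

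The remaining chitin genes included abundant ones that did not pass. Hexo1, a hexosaminidase gene whose product can act on the short sugars that chitinases release, had a mean of 3626 and a log2 fold change of -0.06 in the authors' deposited table (adjusted p = 0.684). Its 95% interval lay below those of Cht2 and Cht7. Of the chitin-binding Obstructor genes, obst-B was 2.41-fold higher in young (log2 1.27 in the authors' deposited table, adjusted p = 1.00e-08, DESeq2). In the authors' deposited table, the more abundant obst-E, at a mean of 9401, had a log2 fold change of 0.07 (adjusted p = 0.567). Mur29B, a mucin-related gene listed in the authors' deposited table at a mean of 25911, had one of 0.17 (adjusted p = 0.348), and Muc26B and obst-I were listed at 0. With fold changes recentred on ribosomal protein genes, Mur29B and obst-E turned to -0.0020 and -0.10 and still did not pass, whereas Hexo1 became higher in mature (log2 -0.23, adjusted p = 0.0280).

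**Figure D4:**
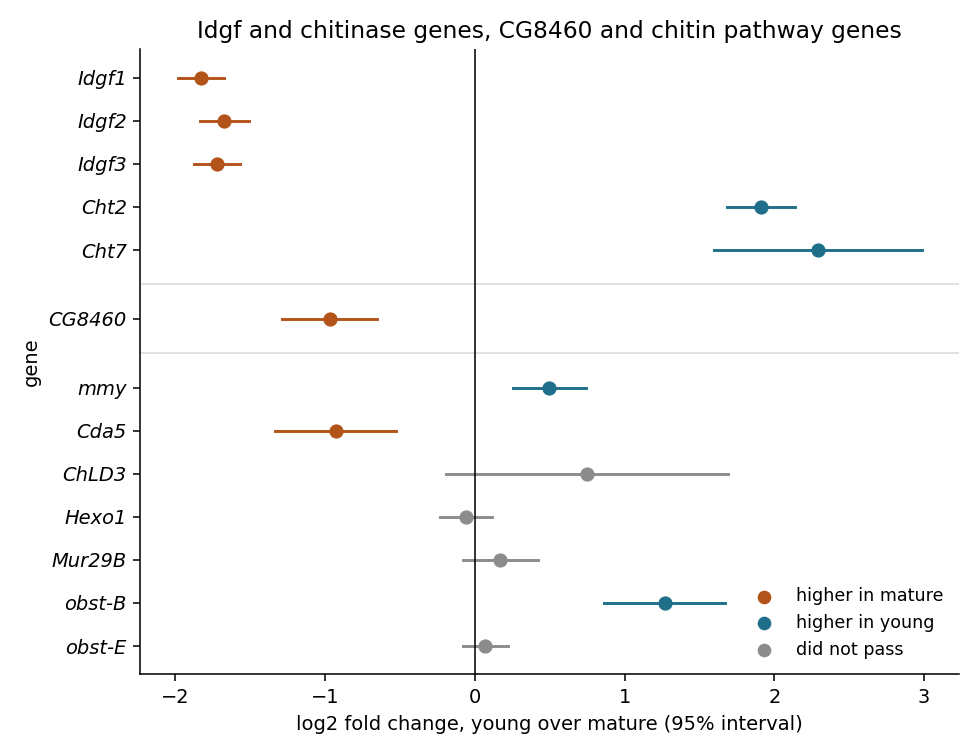
Log2 fold change, young over mature, with 95% intervals from the deposited standard errors, for the Idgf and chitinase genes (top), CG8460 (middle) and the tested chitin pathway genes (bottom); orange is higher in mature, blue higher in young and grey did not pass. The point of each Idgf and chitinase gene lies outside the range of -0.93 to 1.27 of the listed chitin pathway points, while the intervals of obst-B and ChLD3 reach into that of Cht7, and ChLD3 also into that of Cht2.

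Features most like each gene were taken as those called in the name-checked stretches with a mean within 2-fold of its own and the nearest fold change, a likeness over the 2 ages only. In the authors' deposited table, those for Idgf1 were CG17549 and Idgf2, with log2 fold changes of -1.89 and -1.67, and those for Idgf2 were CG3036 and Idgf1, with -1.55 and -1.83. Idgf3 had no close match within that window of means: Ggamma30A, a G protein subunit gene, and Pino came nearest, 0.47 and 0.76 away on the log2 scale. Idgf2 lay only 0.049 from Idgf3 in log2 fold change, but its lower mean of 22543 fell just outside the window. By the authors' deposited table, Cht2 was nearest to CG13937 and CG5853, with log2 fold changes of 1.89 and 1.99, and Cht7 to CG5397 and Tmhs, with 2.31 and 2.14.

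Dissected hindguts hold or carry other cells, among them fat body and hemocytes, which also express Idgf genes, and in bulk tissue fewer cells of a type and less RNA per cell cannot be told apart. Of 8 listed fat body markers only 2 lay in the name-checked stretches. Both came out higher in young, beside 20.7% of all tested features there. These 2 genes alone do not measure how much fat body the guts carried. Whether they mark larval or adult fat body cells here was not tested. The authors' deposited table gives Lsp1beta and Fbp2 log2 fold changes of 2.84 and 1.34, and their summed implied mean was 74.1 normalized counts in mature guts and 312 in young guts. Of 6 tested hemocyte markers, NimC4, NimC1, Sr-CI and Pxn were higher in young. Their log2 fold changes in the authors' deposited table were 3.75, 1.54, 1.43 and 0.32. In the same table crq was higher in mature (log2 -0.57), while NimC2 (log2 0.59) did not pass. The means of the hemocyte markers ran from 4.40 for He, which was not tested, to 8852 for crq in the authors' deposited table, and the summed implied mean over the 7 was 13412 normalized counts in mature guts and 11530 in young guts. Most of each sum was crq, at 10581 and 7124. None of these markers was listed at 0, and their part in the changes of the Idgf and chitinase genes was not tested.

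Markers of other cells were read in the same way, beside the 40.3% called over all tested features. The tracheal marker trh was higher in young (log2 0.58), and of 3 visceral muscle markers Mhc and sls were higher in young and Msp300 higher in mature (log2 0.90, 0.63 and -0.21 in the authors' deposited table). Of 5 tested midgut markers, Mal-B2 and Jon25Bi were higher in mature and Try29F was higher in young, and the summed implied mean over 6 was 3752 normalized counts in mature guts and 2306 in young guts. Mal-B2 alone supplied 2424 and 972 of these sums. Of 3 Malpighian tubule markers, DESeq2 called 0 in the authors' deposited table, or 2 at an unadjusted p under 0.05, and 0.0732 for Uro was the smallest adjusted p. Of 6 tested hindgut markers, bowl was higher in mature and drm, cad and wg were higher in young, with a summed implied mean of 178021 normalized counts in mature guts and 200960 in young guts. Nha1, which did not pass, supplied 159497 and 171944 of these sums. None of these markers was listed at 0, and their part in the changes was not tested.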

How the data were processed

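Per the labels' protocols, Trizol was used to extract RNA of mature and young adult hindguts, which was sequenced as paired reads (NovaSeq). The submitters' processing notes name BDGP6 as the build and Trim Galore, HISAT2 and DESeq2 as tools, with no versions. How reads were counted, whether by strand and against which annotation release, is not given in the sources used here. The authors' deposited mean is a signal that averages DESeq2-normalized counts across libraries. The deposited fold change is log2, young over mature, and so is its standard error, per the file headers and the deposited lists. The authors' deposited Wald score is the ratio of these, and the p-value and adjusted p-value deposited by the authors were recovered from it with the normal distribution and a Benjamini-Hochberg adjustment over 10458 features. The largest standard error was 0.531, also among genes with low means. It was 0.44 for He at a mean of 4.40, below the 0.53 of NimC2 at a mean of 14.4. Shrinkage of the folds of low genes toward 0 is thus possible and was not tested.

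Of 23932 identifiers, 23851 matched the Ensembl annotation of BDGP6, release 115; positions are 1-based. The fit behind the table could not be repeated, as counts per library were not analysed here. Intervals are the log2 change plus and minus 1.96 standard errors. Implied means assume 3 libraries per age and an unshrunken fold. The code for adjustment, recentring and the fold test was tested on simulated data. The members, the chitin list, the markers and the other lists were chosen with earlier results of these data known. The rule for named genes took the 5 members, other family 18 genes, the 3 nearest protein-coding genes on each side, overlapping features, the 2 most alike features, and the chitin list. Of 53 listed chitin genes, 49 had a row and 9 lay in the name-checked stretches. Protein and promoter sequences were not used here. Values and figures were made in Python 3.11.15 (matplotlib 3.10.9, scipy 1.17.1, numpy 2.4.6, pandas 2.3.3).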

Additional observations from a re-analysis of the deposited data

How the results depend on the processing

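All 5 family members kept their direction and their call under the 8 alternatives run: no low-mean filter, a threshold of 0.01 on the adjusted p, adjustment over the name-checked stretches alone, protein-coding features only, a Wald test against a 2-fold change, recentring on ribosomal protein genes (a shift of 0.17 on the log2 scale), recentring on the median of all tested features, and a mean of at least 100. Only the recentrings altered the fold changes, so the direction could not change under the other alternatives. The largest adjusted p was that of Cht7 in the test against a 2-fold change, 0.0113. Cht2 lay between 1.74 and 1.92 and Cht7 between 2.12 and 2.30 on the log2 scale, and Idgf1, Idgf2 and Idgf3 between -2.00 and -1.82, -1.85 and -1.67, and -1.89 and -1.72. The test against a 2-fold change called none of the 7 chitin pathway genes (0 in each direction, also at an unadjusted p under 0.05), against 1 higher in mature and 2 higher in young. It called 108 of the 2604 features of the stretches, 55 higher in mature and 53 higher in young, against 1050, 512 and 538. Recentring on ribosomal protein genes made 808 features higher in mature and 412 higher in young, and 2 chitin pathway genes higher in mature; Mur29B turned to -0.0020 and obst-E to -0.10. Per kilobase, with lengths chosen after seeing the data, the mean of Idgf3 was 29762 normalized counts over its shortest transcript and 37096 over coding exons, against 12412, and that of Cht2 was 956 and 1083, against 518. No paired analysis was possible because single libraries have no values in the files used, and none could be left out for the same reason. The depth of each library is unknown.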
